A study of Mus musculus with 12 samples.

Results

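The 10 genes described here are the Toll-like receptor genes Tlr1, Tlr2, Tlr4, Tlr5, Tlr6, Tlr7, Tlr8, Tlr9 and Tlr13, without Tlr3, Tlr11 and Tlr12, and the adaptor gene Myd88. They were taken by symbol from a table of 24319 gene entries measured in CD45-positive cells of mouse liver, and all 10 symbols were found. RNA-seq was run on 12 libraries, 3 in each of 4 groups, from livers of C57BL/6 mice. Every mouse, controls included, had received human c-Myc and N-ras by hydrodynamic transfection on day 0, a rapid injection of a large volume that carries plasmid DNA into hepatocytes. The control group was given PBS intraperitoneally on days 14, 16, 18, 20 and 22 and 200 µg of IgG on days 17, 19 and 21. The polyIC group was given polyIC, a synthetic double-stranded RNA, at 4 mg/kg in place of PBS, with the same IgG. The antiPDL1 group was given PBS and, in place of IgG, 200 µg of an antibody against PD-L1, the ligand of the inhibitory T cell receptor PD-1. The combination group was given both polyIC and the antibody. The protocol states that livers were taken on day 24, whereas the time point in the labels is day 22. Capture was by a CD45 antibody carrying PE and by PE beads in a magnet, so a library is a mixture of liver leukocyte types. Nothing in the labels says that the 3 libraries of a group are from different mice, and p-values then measure only the spread between these libraries, which may be technical.

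Toll-like receptors are membrane proteins of innate immune cells that bind conserved molecules of microbes. Tlr1, Tlr2, Tlr4, Tlr5 and Tlr6 encode receptors of the cell surface, for lipoproteins, lipopolysaccharide and flagellin. Tlr7, Tlr8, Tlr9 and Tlr13 encode receptors of endosomes, for RNA and DNA. Ligand binding brings receptors together in pairs and recruits MYD88, which links them to IRAK kinases, TRAF6 and NF-kappaB. TLR3, the receptor of double-stranded RNA, signals through another adaptor, TRIF, the product of Ticam1, so that none of the receptors described here is the textbook receptor of polyIC. In the liver, Kupffer cells, monocytes, dendritic cells, neutrophils and B cells each carry their own set of these receptors.

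Values are FPKM, fragment numbers scaled to transcript length and library size, a level per length that allows genes to be compared. Depth was recovered only as a ratio between libraries, with the shallowest at 0.469 of the deepest. Among the libraries 3 stood apart by their mean correlation with each group across all tested genes: control replicate 2 was closest to the polyIC group, antiPDL1 replicate 2 to control and antiPDL1 replicate 0 to the combination. The 5 leukocyte markers Ptprc, Coro1a, Laptm5, Cd53 and Lcp1 summed to between 2578 and 4800 FPKM, and Ptprc encodes CD45 itself. Hepatocyte markers were also present, at 1537 to 4717 FPKM summed over 11 genes in control and 223 to 365 in the combination. In such a mixture, fewer cells of a type and less RNA per cell cannot be told apart.

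Of the 10 genes, 9 were tested, and Tlr5, the flagellin receptor, did not reach 1 FPKM in 3 libraries. In the controls Myd88 was at the top, at 61.4 ± 4.83 FPKM (SD, n = 3 here and in the group values that follow), and its range overlapped that of Tlr7, the receptor of single-stranded RNA, at 53.0 ± 5.01. Then came Tlr2 (33.5 ± 9.49), Tlr13 (32.7 ± 5.45), Tlr4 (28.2 ± 11.1), Tlr8 (22.7 ± 9.89), Tlr9 (22.7 ± 6.13) and Tlr1 (18.7 ± 2.27), where each gene overlapped its neighbour in the order. Tlr7 lay apart from Tlr2, Tlr1 lay apart from Tlr6 at 7.34 ± 2.04, and Tlr6 lay apart from Tlr5 at 0.595 ± 0.0902. By their mean over the 12 libraries the 9 tested genes lay above 42.9% (Tlr6) to 92.3% (Myd88) of all tested genes. Tlr5 ran from 0.324 to 0.769 FPKM over the 12 libraries, with no group apart from another.

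The order changed between groups. In the polyIC group Tlr13 (52.3 ± 10.5) and Tlr7 (51.0 ± 11.6) overlapped in the second and the third place. In the antiPDL1 group the second place was held by Tlr2 at 56.3 ± 22.8, a mean that rests on 1 library at 82.6. In the combination Myd88 at 132 ± 24.0 lay apart from every receptor, Tlr13 (55.1 ± 12.3) came next, and Tlr7 stood below Tlr2, at 33.5 ± 8.5, overlapping Tlr1 at 31.6 ± 1.21.

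**Figure D1:**
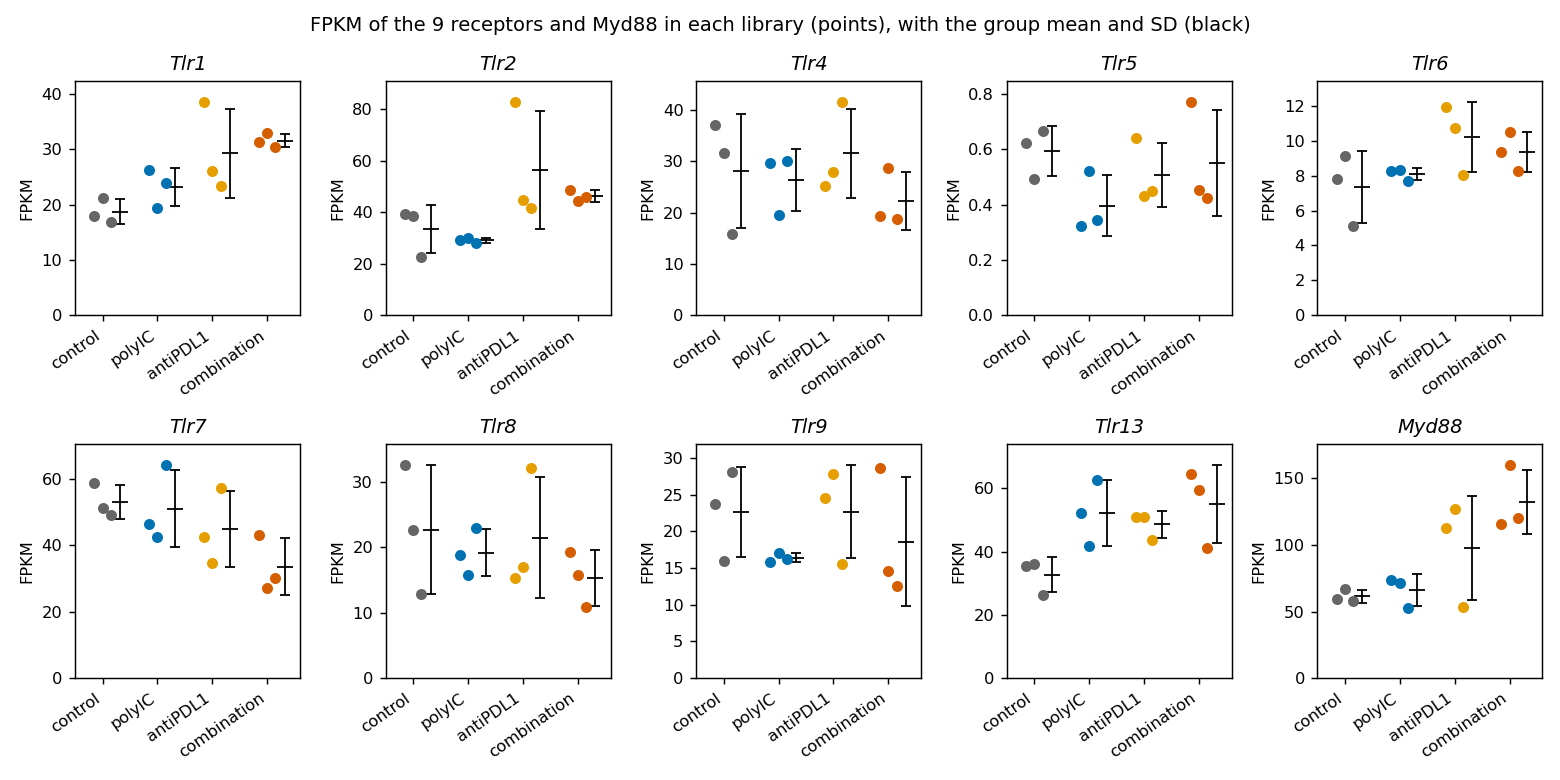
FPKM (y axis, linear from 0) of each of the 10 genes in the 12 libraries, by group on the x axis; points are libraries and black bars are the group mean and SD. The 3 combination libraries lie above all 3 controls for Tlr1, Tlr2, Tlr13 and Myd88, and below them for Tlr7.

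With both agents, Myd88, Tlr1 and Tlr13 rose against control, while Tlr7 was lower in every combination library than in any control without passing the test. The comparison of the combination with control asks what the 2 agents given together did. Differences are fitted log2 differences of FPKM + 1 from limma, with Benjamini-Hochberg adjustment over all 11991 tested genes and a threshold of 0.05. By this test 3 of the 9 tested genes rose and 0 fell, in a comparison where 29.4% of all tested genes passed, 13.1% as rises and 16.3% as falls. The count was therefore close to that of genes at large. The median difference of the 9 genes was 0.34, and 0.05 over all tested genes. Without overlap between the groups were 5 of the 9, namely 4 higher and 1 lower, where 45.9% of all tested genes did not overlap (25.6% were higher and 20.3% lower). Among the Toll-like receptor genes left out of the set, Tlr12 fell, as given below, and Tlr3 and Tlr11 did not pass.

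Myd88, the adaptor shared by all the receptors described here, had 59.7, 66.9 and 57.7 FPKM in the controls and 116, 160 and 120 in the combination. Every combination library was above every control. The log2 difference was 1.08 ± 0.29 (SE), with a 95% confidence interval of 0.44 to 1.71 and limma adjusted p = 0.0186, or 2.15 times the control mean. Tlr1, which pairs with TLR2 to bind triacylated lipoproteins, had 18.0, 21.2 and 16.8 FPKM in control and 31.4, 32.9 and 30.5 in the combination. Its groups did not overlap either, and the 3 combination values lay close together. The log2 difference was 0.73 ± 0.19 (95% interval 0.32 to 1.15, limma adjusted p = 0.0163). Tlr13, a mouse receptor of bacterial ribosomal RNA that people lack, had 35.6, 36.1 and 26.4 FPKM in control and 64.7, 59.4 and 41.2 in the combination. The lowest combination library stood above the highest control, and the log2 difference was 0.72 ± 0.21 (95% interval 0.26 to 1.19, limma adjusted p = 0.0259).

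All 3 rises rest on few libraries. Without combination replicate 1 none passed, with limma adjusted p = 0.0791 for Myd88, 0.0625 for Tlr1 and 0.0974 for Tlr13. Without control replicate 0 none passed either, at 0.061, 0.0584 and 0.0552. Tlr13 was also lost without control replicate 2 (adjusted p = 0.0673), without combination replicate 0 (0.0818) and with control replicate 2 and antiPDL1 replicate 2 both out (0.0515). Over all 21 alternatives the log2 difference of Myd88 stayed between 0.88 and 1.23, that of Tlr1 between 0.62 and 0.82 and that of Tlr13 between 0.58 and 0.91, and the adjusted p ran from 0.000181 to 0.0791, 0.00243 to 0.0625 and 0.00208 to 0.0974.

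The start sites of the 3 genes that rose are shown as the 250 bases before each RefSeq start (build GRCm38.p6), 5′ to 3′ on the strand of the gene. Myd88 lies on the minus strand, chr9:119340019-119340268, Tlr1 on the minus strand, chr5:64933559-64933808, and Tlr13 on the plus strand, chrX:106143025-106143274. Capitals mark a match to 1 of the searched motifs. For Tlr1 the table holds a second window, which had no match and is not printed.
Myd88: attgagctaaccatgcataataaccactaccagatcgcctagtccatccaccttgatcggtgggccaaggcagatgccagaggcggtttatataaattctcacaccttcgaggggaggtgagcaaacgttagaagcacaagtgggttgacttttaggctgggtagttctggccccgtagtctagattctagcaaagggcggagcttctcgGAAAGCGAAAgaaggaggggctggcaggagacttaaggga
Tlr1: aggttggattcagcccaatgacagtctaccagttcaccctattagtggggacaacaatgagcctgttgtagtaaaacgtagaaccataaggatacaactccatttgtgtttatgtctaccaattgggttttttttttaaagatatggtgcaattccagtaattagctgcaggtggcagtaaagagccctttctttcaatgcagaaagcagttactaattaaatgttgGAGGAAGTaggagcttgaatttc
Tlr13: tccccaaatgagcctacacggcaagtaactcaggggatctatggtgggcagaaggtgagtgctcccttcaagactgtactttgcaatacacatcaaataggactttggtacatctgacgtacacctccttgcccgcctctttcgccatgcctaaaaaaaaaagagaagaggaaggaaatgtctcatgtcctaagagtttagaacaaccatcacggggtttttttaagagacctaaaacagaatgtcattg
The search covered 3 motifs on both strands: the interferon regulatory factor pair, GAAA and again GAAA with 2 bases of any kind between them, the PU.1 core GAGGAAGT, and the NF-kappaB motif, GGGA and TTCC with 2 bases of any kind between them. The window of Myd88 and a window of Tlr6, whose other window had no match, held the interferon regulatory factor pair. It was in 2 of the 10 windows of these genes and in 2.98% of all 32851 windows. In Myd88 it lay from base 40 to base 31 before the start. Of the 3 printed windows that of Tlr1 held GAGGAAGT, from base 23 to base 16 before the start, as 2.44% of all windows did. The NF-kappaB motif in this exact form was in 1.21% of all windows and in 0 of the 10 windows of these genes, which covered 8 of the 10 genes. Other forms of the NF-kappaB motif were not searched, so the 0 does not show that these windows lack it. A match describes the letters only.

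Myd88 and Tlr1 share bases with another gene. In the GENCODE annotation at hand the exons of Myd88 overlap those of Acaa1a on the opposite strand, over 290 of 2576 exon bases, or 11.3%. Acaa1a encodes a peroxisomal thiolase of fatty acid oxidation. The library kit keeps strand, but whether counting used it is not given in the sources used here, so reads of the shared bases may stand in either value. Acaa1a had 34.7, 42.1 and 26 FPKM in control, 36.7, 32.2 and 23.0 with polyIC, 52.1, 60.5 and 23.8 with the antibody and 45, 60.6 and 41.0 in the combination. Both genes were low in antiPDL1 replicate 2 and high in the other antiPDL1 libraries. Against control the combination differed by 0.51 ± 0.33 for Acaa1a (95% interval -0.21 to 1.22, limma adjusted p = 0.259), and its part in the result for Myd88 was not tested. Tlr1 and Tlr6, neighbouring paralogs, shared 454 words of 50 bases, 13.6% of those of Tlr1 and 12.3% of those of Tlr6, so that reads from these stretches may have been assigned to either. The ratio of Tlr1 to Tlr6 was 2.64 ± 0.568 in control, 2.88 ± 0.462 with polyIC, 2.86 ± 0.385 with the antibody and 3.40 ± 0.283 in the combination, and these ranges overlapped.

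Among the endosomal receptors, Tlr7 had 58.6, 51.2 and 49.1 FPKM in control, 46.5, 42.3 and 64.1 with polyIC, 42.5, 34.5 and 57.3 with the antibody and 43.1, 27.2 and 30.1 in the combination. The combination lay below control in 3 of 3 libraries but overlapped both single treatments. Its log2 difference from control was -0.67 ± 0.23 (95% interval -1.18 to -0.16), with limma adjusted p = 0.05005, just outside the threshold. Over the 21 alternatives this p ran from 0.00137 to 0.184, and 9 of them called Tlr7, among them those without polyIC replicate 2 (0.0474), antiPDL1 replicate 1 (0.0437), antiPDL1 replicate 2 (0.0266) or combination replicate 0 (0.0287). Tlr8, the neighbour of Tlr7 on the X chromosome and a receptor of RNA breakdown products, had 32.6, 22.6 and 12.8 in control and 19.3, 15.7 and 10.9 in the combination. Those groups overlapped, with a difference of -0.48 ± 0.35 (limma adjusted p = 0.318). Without control replicate 2 and antiPDL1 replicate 2 the difference of Tlr8 was -0.82 (adjusted p = 0.0235, range over alternatives 0.0235 to 0.761). In the single treatments Tlr8 ran from 15.7 to 23.0 with polyIC and from 15.3 to 32.2 with the antibody. Tlr9, the receptor of unmethylated CpG DNA, had 23.8, 16.0 and 28.1 FPKM in control, 15.9, 17.1 and 16.3 with polyIC, 24.6, 27.9 and 15.6 with the antibody and 28.7, 14.6 and 12.5 in the combination. The polyIC libraries lay close together at the low end, and the combination spanned the whole range, with a difference from control of -0.33 ± 0.31 (limma adjusted p = 0.438).

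Among the surface receptors other than Tlr1, Tlr2, the shared partner of TLR1 and TLR6, had 39.5, 38.4 and 22.5 FPKM in control, 29.2, 30.0 and 28.2 with polyIC, 82.6, 44.6 and 41.8 with the antibody and 48.8, 44.3 and 45.9 in the combination. Both groups with the antibody lay above all controls and all polyIC libraries. The combination differed from control by 0.50 ± 0.26 (95% interval -0.08 to 1.08, limma adjusted p = 0.169). Tlr4, the receptor of lipopolysaccharide, had 37.1, 31.7 and 15.8 in control, 29.6, 19.5 and 30.1 with polyIC, 25.3, 27.9 and 41.5 with the antibody and 19.4, 28.8 and 18.7 in the combination. No group of Tlr4 stood apart from another, and the combination differed from control by -0.27 ± 0.32 (limma adjusted p = 0.547). Tlr6, which pairs with TLR2 for diacylated lipoproteins, had 7.81, 9.11 and 5.11 in control, 8.28, 8.29 and 7.68 with polyIC, 11.9, 10.7 and 8.05 with the antibody and 9.33, 10.5 and 8.24 in the combination. Its groups overlapped, with a difference between combination and control of 0.34 ± 0.20 (limma adjusted p = 0.217). For Tlr2, Tlr4, Tlr6 and Tlr9 the intervals reach differences of the size seen in Tlr1, in 1 direction or the other, so these data do not show that they stayed the same.

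**Figure D2:**
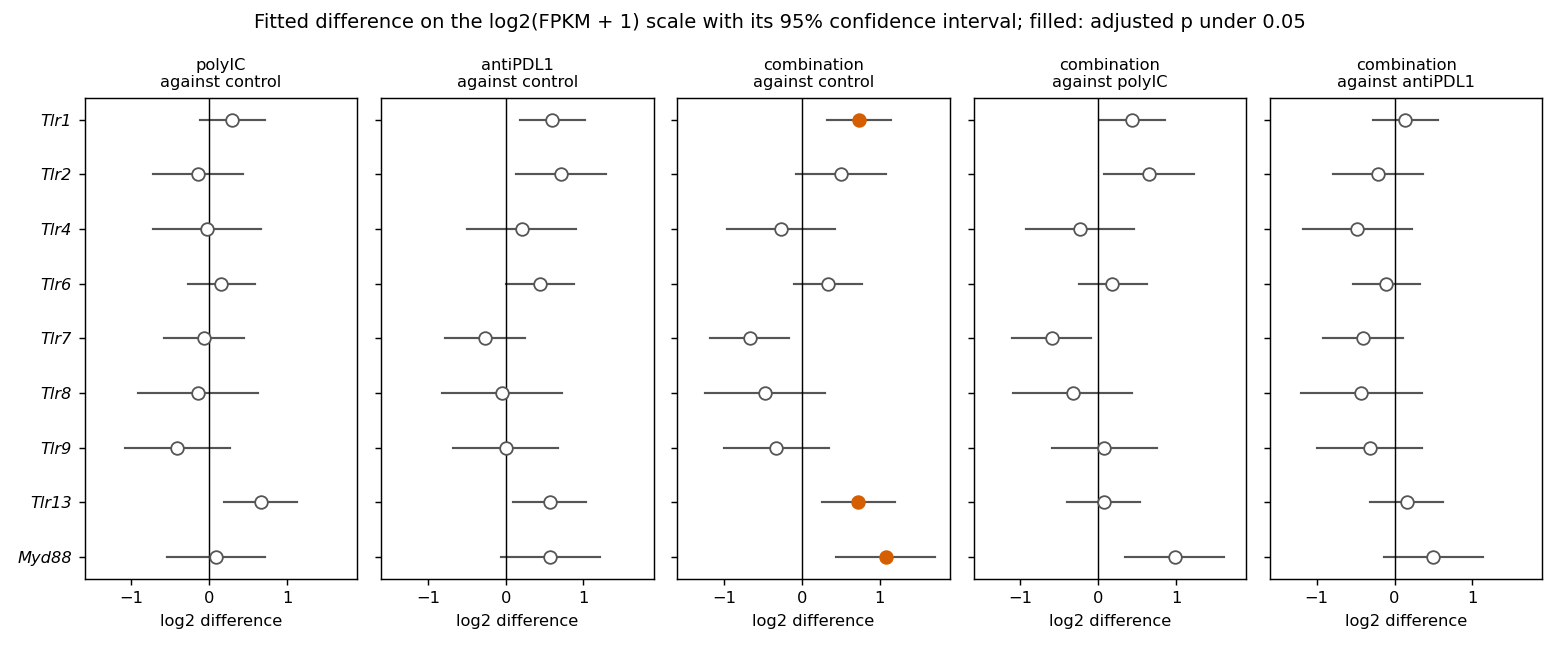
Fitted log2 difference of FPKM + 1 (x axis) for the 9 tested genes in 5 comparisons; points are estimates, lines 95% confidence intervals, and filled points have a limma adjusted p under 0.05. Filled points appear only for Tlr1 (0.73), Tlr13 (0.72) and Myd88 (1.08) in the combination against control.

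With polyIC alone, Tlr13 was the gene with the greatest distance from control, and none of the 9 tested genes passed the test. This comparison asks what polyIC did without the antibody. By limma 0 of 9 passed, where 3.64% of all tested genes did, and 1 of 9 had an unadjusted p under 0.05, where 22.2% of all tested genes had. Tlr13 had 52.2, 41.8 and 62.8 FPKM with polyIC, all above the highest control at 36.1, and differed by 0.66 ± 0.21 (95% interval 0.19 to 1.12, limma adjusted p = 0.105). It was the 1 gene of 9 without overlap, where 28.6% of all tested genes did not overlap and 16.2% were higher without overlap. Myd88 had 73.8, 71.7 and 52.4 FPKM with polyIC, around the controls, at 0.09 ± 0.29 (limma adjusted p = 0.884). Across its 21 alternatives Tlr13 passed in 1, with array quality weights, at adjusted p = 0.0395, and its adjusted p ran to 0.313.

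With the antibody alone, Tlr1, Tlr2 and Tlr13 lay above control in 3 of 3 libraries, and again none of the 9 passed. The comparison asks what the antibody did without polyIC. By limma 0 of 9 passed, where 0.208% of all tested genes did, while 4 of 9 had an unadjusted p under 0.05 beside 17.0% of all tested genes. The 3 genes without overlap, all higher, compare with 12.5% of all tested genes in either direction and 4.61% as higher. Tlr1 had 38.5, 26.1 and 23.3 FPKM, at 0.60 ± 0.19 from control (95% interval 0.18 to 1.02, limma adjusted p = 0.211). Tlr2 differed by 0.71 ± 0.26 (adjusted p = 0.240), Tlr13, at 51.1, 51.0 and 43.6 FPKM, by 0.57 ± 0.21 (adjusted p = 0.240) and Tlr6 by 0.44 ± 0.20 (adjusted p = 0.291) in the same limma fit. Myd88 was at 113 and 127 FPKM in replicates 0 and 1 and at 53.4 in replicate 2, below the lowest control at 57.7, and its difference was 0.57 ± 0.29 (limma adjusted p = 0.334).

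These values depended on antiPDL1 replicate 2, the library closest to control over all genes. Without it Myd88 differed by 0.96 (limma adjusted p = 0.0114, range over its alternatives 0.0114 to 0.801) and Tlr1 by 0.74 (adjusted p = 0.0271, range 0.0271 to 0.697), and both passed, in a fit where 17.4% of all tested genes did. With control replicate 2 also left out, Myd88 was at 0.91 (adjusted p = 0.0127) and Tlr1 at 0.67 (adjusted p = 0.036), in a fit where 28.1% of all tested genes passed in this comparison. Tlr2 stood at 0.88 without antiPDL1 replicate 2 (adjusted p = 0.0506, range 0.0446 to 0.746) and at 0.63 with both libraries out (0.0717).

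Between the combination and polyIC, Myd88, Tlr1 and Tlr2 did not overlap, all higher in the combination, and none of the 9 passed. By limma 0 of 9 passed, where 1.23% of all tested genes did, and 4 of 9 had an unadjusted p under 0.05, where 13.5% of all tested genes had. The 3 genes without overlap compare with 29.5% of all tested genes in either direction and 13.3% as higher. Myd88 differed by 0.99 ± 0.29 (95% interval 0.35 to 1.62, limma adjusted p = 0.125), Tlr2 by 0.65 ± 0.26 (adjusted p = 0.294), Tlr1 by 0.44 ± 0.19 (adjusted p = 0.337) and Tlr7 by -0.60 ± 0.23 (adjusted p = 0.269). Without antiPDL1 replicate 2, which is in neither group but enters the shared spread, Myd88 had adjusted p = 0.0126, in a range of 0.000489 to 0.459 over its alternatives. Between the combination and the antibody alone no gene of the 9 stood apart, where 20.4% of all tested genes did, and 0 of 9 passed in limma, where 0.125% of all tested genes did; 0 of 9 had an unadjusted p under 0.05. Myd88 differed there by 0.50 ± 0.29 (95% interval -0.13 to 1.14, limma adjusted p = 0.456).

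Whether polyIC acted differently with and without the antibody was asked by an interaction contrast. It passed in 0 of the 9 genes and in 0.025% of all tested genes by limma, with an adjusted p of 0.999 in all 9 and an unadjusted p under 0.05 in 0 of 9. The limma F test of any difference among the 4 groups passed in 0 of 9, where 13.7% of all tested genes passed, and 4 of 9 had an unadjusted p under 0.05, where 31.2% of all tested genes had. The lowest adjusted p of that test was 0.0671 for Myd88, followed by 0.0672 for Tlr1. Without antiPDL1 replicate 2, Myd88, Tlr1 and Tlr2 passed it, where 27.9% of all tested genes did, and without antiPDL1 replicate 0, Tlr1 did, where 15.3% did. The comparisons with control share its 3 libraries, so they are not independent of each other.

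Markers of the cell types that carry these receptors also differed between the groups. Kupffer cell markers, 10 genes including Clec4f, Vsig4 and Timd4, summed to 3891 to 17163 FPKM in control, 4112 to 4651 with polyIC, 3372 to 10999 with the antibody and 1585 to 2802 in the combination, where 8 of 10 fell against control. Control replicate 2, the lowest control for 8 of the 9 tested genes, all but Tlr9, was also the lowest for these markers, at 3891 FPKM beside 15063 and 17163. It was the highest control for the markers of monocytes (912 FPKM), neutrophils (3223), plasmacytoid dendritic cells (2107), B cells (1180) and conventional dendritic cells (484). Monocyte markers summed to 586 to 912 FPKM in control and 1355 to 1763 in the combination, where 6 of 10 rose. Neutrophil markers ran from 1062 to 3223 in control and from 2004 to 5714 in the combination, and 4 of 10 rose. The difference was positive in 6 of these 10 genes and negative in 4, so the list did not move as 1. Plasmacytoid dendritic cell markers, of a cell type rich in TLR7 and TLR9, ran from 1075 to 2107 in control and from 360 to 600 in the combination, where 8 of 10 fell. This sum rests largely on Bst2 and Ly6d, at means of 552 and 427 FPKM in control and 247 and 86.9 in the combination. B cell markers went from between 416 and 1180 to between 75.3 and 158, and 10 of 10 fell. Conventional dendritic cell markers ran from 319 to 484 and from 143 to 247, and 6 of 11 fell. None of these markers was at 0 in every library, and over all tested genes 13.1% rose and 16.3% fell in the combination. The part of these cell types in the values of the receptors was not tested.

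The receptor makeup of a library was described as each gene's percent of the summed FPKM of the 9 receptors, which ran from 177 to 293 FPKM. Tlr3, Tlr11 and Tlr12 were not in the sum. The 4 endosomal receptors held 59.4%, 55.5% and 65.7% in control, 58.7%, 60.1% and 64.8% with polyIC, 45.6%, 54.3% and 56.4% with the antibody and 58.7%, 50% and 47.7% in the combination. The means were 60.2 ± 5.12%, 61.2 ± 3.20%, 52.1 ± 5.69% and 52.1 ± 5.8%, and the combination overlapped control. Within the endosomal set the weight moved from Tlr7 to Tlr13. Tlr7 held 24.5 ± 2.81% of the sum in control and 14.3 ± 2.42% in the combination, and Tlr13 held 15 ± 0.936% and 23.5 ± 2.43%. The ratio of Tlr13 to Tlr7 was 0.608, 0.705 and 0.538 in control, 1.12, 0.989 and 0.980 with polyIC, 1.2, 1.48 and 0.762 with the antibody and 1.5, 2.19 and 1.37 in the combination. Every treated library was above every control, and every combination library was above every polyIC library. The ratio of Tlr2 to Tlr4 ran from 1.06 to 1.43 in control and from 1.54 to 2.52 in the combination, and from 1.01 to 3.26 with the antibody. Tlr1 held 8.64 ± 1.35% in control and 13.8 ± 1.80% in the combination. A share shows unequal levels within a library and no test was made of it.

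**Figure D3:**
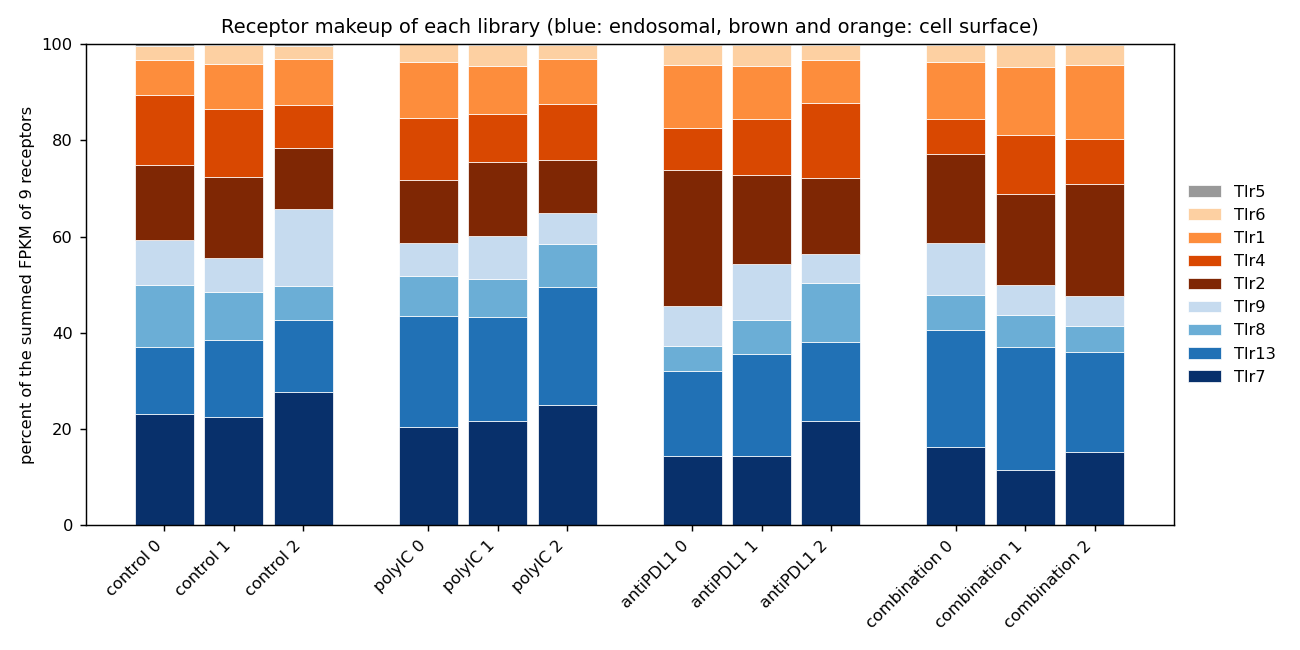
Percent of the summed FPKM of the 9 receptors (y axis) held by each receptor in each of the 12 libraries (x axis, group and replicate number); blue tones are endosomal and brown to orange tones cell surface receptors, and Tlr5 is too low to be seen. The part of Tlr7 at the foot of the bars is 22.6% to 27.7% in the controls and 11.6% to 16.2% in the combination.

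Across the 12 libraries the 36 pairs among the 9 tested genes had Pearson r of log2(FPKM + 1) from -0.91 to 0.83, given as descriptions since libraries of a group share their treatment. Tlr4 and Tlr8 had r = 0.83, and 0.83 after the group means were subtracted. Tlr2 and Tlr6 had r = 0.82, and 0.78 within groups. Tlr7 and Tlr8 had r = 0.71, and 0.70 within groups. At the other end Tlr7 and Myd88 had r = -0.91, and -0.81 within groups. The libraries at 52.4 FPKM (polyIC replicate 2) and 53.4 FPKM (antiPDL1 replicate 2), the lowest for Myd88, had the first and the third highest Tlr7 at 64.1 and 57.3 FPKM. Combination replicate 1, the highest for Myd88 at 160 FPKM, had the lowest Tlr7 at 27.2. The ratio of Myd88 to Tlr7 was 1.17 ± 0.145 in control and 4.18 ± 1.60 in the combination, and ran from 0.818 to 5.87 over all libraries. Myd88 and Acaa1a, the overlapping gene, had r = 0.90, and 0.96 within groups.

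**Figure D4:**
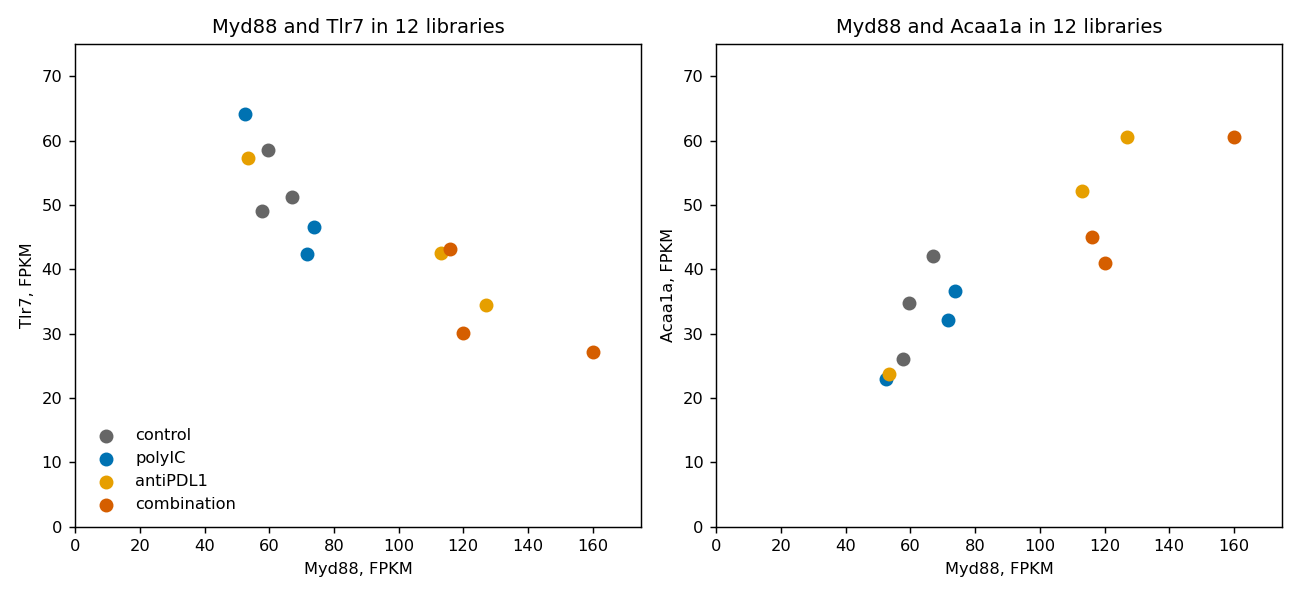
Tlr7 (left, y axis) and Acaa1a (right, y axis) against Myd88 (x axis), all in FPKM on linear axes, in the 12 libraries, coloured by group. Libraries with high Myd88 had low Tlr7 (r = -0.91) and high Acaa1a (r = 0.90), and antiPDL1 replicate 2, at 53.4 FPKM of Myd88, lies next to polyIC replicate 2 at 52.4.

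By the same measure, over all tested genes and 12 libraries, the genes most like Myd88 were Socs3, an inhibitor of cytokine signalling, Pmpca, a mitochondrial peptidase subunit, and Bst1, a surface enzyme of myeloid cells, each at r = 0.97. Those most like Tlr1 were Bcl2a1b, an anti-apoptotic gene, and Mlf1 (both r = 0.96) and Gca, the gene of grancalcin (r = 0.95). Tlr2 was most like Creb5, Dram1 and Cstb (r = 0.94, 0.92 and 0.92), and Tlr6 like Lgals3, Gla and Cfb (0.96, 0.95 and 0.95). Lgals3 encodes galectin-3 and Cfb complement factor B. Tlr4 was most like Rnf141, Lamp2 and Dram2 (0.91, 0.88 and 0.88), of which Lamp2 is a lysosomal membrane protein. Tlr7 was most like Klf9, Serinc3 and Olfml3 (0.91, 0.90 and 0.90), and Tlr8 like Fgd4, Adam10 and Rnf103 (0.94, 0.92 and 0.90). Tlr9 was most like Mtmr4, Kat2a and Lmo1 (0.89, 0.88 and 0.88). For Tlr13 the highest values were lower, at 0.87 for Mdfic and 0.86 for Clec4a1 and Brip1. Each is the top of the values over all tested genes, so a high r is set in part by the choice. Some of the genes named were low. Over the 12 libraries Mlf1 ran from 0.172 to 2.99 FPKM, Creb5 from 0.268 to 2.24, Lmo1 from 1.54 to 3.85 and Brip1 from 0.974 to 3.69.

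The other genes of the pathway were read from lists by role, 102 tested of 106 listed. Against control, 11 rose and 14 fell in the combination by limma, with a median difference of -0.05 beside 0.05 over all tested genes. In this comparison 29.4% of all tested genes passed, 13.1% as rises and 16.3% as falls. With polyIC 3 rose and 1 fell, where 3.64% of all tested genes passed. With the antibody 0 passed in limma, where 0.208% of all tested genes did. Of the 25 called in the combination, 13 passed without any single one of the 12 libraries: Btk, Ccl3, Ccl4, Cd36, Ctsl, Il10, Il12b, Il1r1, Il6, Irg1, Lbp, Saa3 and Tnfaip3. Of the 25, 14 were called without control replicate 0, 15 without control replicate 1, 13 without combination replicate 1 and 17 without combination replicate 2, and all 25 with control replicate 2 and antiPDL1 replicate 2 both left out.

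Of 8 genes listed as co-receptors and ligand delivery, 3 fell and 0 rose in the combination, and 5 did not pass. Of all tested genes 16.3% fell and 13.1% rose. Cd14, the co-receptor that hands lipopolysaccharide to TLR4, went from 91.6, 86.3 and 33.2 FPKM in control to 34, 26.1 and 23.1, a difference of -1.20 ± 0.36 (limma adjusted p = 0.0278). Control replicate 2 overlapped the combination here, and Cd14 did not pass without control replicate 0, at adjusted p = 0.117. Cd36, a scavenger receptor that works with TLR2, went from 137 ± 50 to 31.7 ± 8.13 FPKM (-2.03 ± 0.38, limma adjusted p = 0.0045). Lbp, which carries lipopolysaccharide to CD14, went from 9.76 ± 5.59 to 1.38 ± 0.193 FPKM (-2.01 ± 0.41, limma adjusted p = 0.00622). In control replicates 0, 1 and 2 Lbp had 14.4, 11.3 and 3.58 FPKM, beside 4717, 4067 and 1537 for the summed hepatocyte markers. Of those markers 10 of 11 fell in the combination, and the part of hepatocytes in the value of Lbp was not tested. Ly96, which encodes MD-2, the part of the TLR4 complex that binds lipopolysaccharide, went from 47.7 ± 18.8 to 25.0 ± 3.53 FPKM, at -0.82 ± 0.29 and limma adjusted p = 0.051. Tlr4 itself differed by -0.27, as given above.

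Of 17 tested genes of trafficking, chaperones and endosomal processing, 3 fell and 0 rose, where 16.3% of all tested genes fell and 13.1% rose. Unc93b1, which carries the endosomal receptors to their compartment, had 476, 493 and 259 FPKM in control and 274, 194 and 181 in the combination. The highest combination library overlapped the lowest control, with a difference of -0.88 ± 0.28 (limma adjusted p = 0.0376, and 0.138 without control replicate 0). The Unc93b1 call held in 7 of the 12 fits without 1 library. Ctsl, an endosomal protease that can cleave these receptors, went from 299 ± 38.9 to 77.7 ± 19.5 FPKM (-1.95 ± 0.37, limma adjusted p = 0.00504). Lgmn, an asparagine endopeptidase, went from 1191 ± 663 to 389 ± 93.8 FPKM (-1.42 ± 0.46, limma adjusted p = 0.0379, and 0.142 without control replicate 0). The Lgmn call held in only 4 of the 12 fits without 1 library, and in 11 of all 21 alternatives. All 3 genes stood lowest among the controls in replicate 2.

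Of 20 tested adaptors and proximal kinases, 1 rose and 2 fell, where 13.1% of all tested genes rose and 16.3% fell. Ikbke, an IKK-related kinase, rose from 7.94 ± 0.994 to 16.4 ± 1.92 FPKM (0.96 ± 0.24, limma adjusted p = 0.0133, and 0.0588 without combination replicate 1). Map3k8, a kinase of the ERK branch, fell from 15.8 ± 7.39 to 6.61 ± 2.49 FPKM (-1.09 ± 0.36, limma adjusted p = 0.0434, and 0.150 without control replicate 0). The Map3k8 call held in only 4 of the 12 fits without 1 library, and in 10 of all 21 alternatives. Btk, a kinase of B and myeloid cells, fell from 43.5 ± 2.34 to 28.7 ± 0.545 FPKM (-0.58 ± 0.14, limma adjusted p = 0.0125). Ticam1, the adaptor of TLR3, was at 10.4 ± 0.550 and 10.5 ± 2.85 FPKM, with a difference of -0.02 ± 0.21 that turned to 0.01 under quantile normalization and median-of-ratios rescaling. The 95% interval of Ticam1 was -0.48 to 0.44, below the estimate for Myd88, and the difference between the 2 adaptors was not tested. Tlr3 had 15.9 ± 3.17 FPKM in control and 8.87 ± 3.49 in the combination (-0.83 ± 0.36, limma adjusted p = 0.102). Tlr12, a mouse receptor of profilin that also uses MYD88, fell from 43.9, 32 and 24.7 FPKM in control to 18.5, 6.54 and 10.6 (-1.50 ± 0.40, limma adjusted p = 0.0182, and 0.0801 without combination replicate 1). Tlr11 was at 9.16 ± 1.26 FPKM in control and 9.64 ± 4.5 in the combination and did not pass.

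Of 14 transcription factors 1 passed, Irf1, an interferon regulatory factor. Irf1 rose from 119 ± 19.2 to 251 ± 21.6 FPKM (1.08 ± 0.37, limma adjusted p = 0.0493, and 0.132 without combination replicate 1). The Irf1 call held in only 3 of the 12 fits without 1 library, and in 10 of all 21 alternatives. Of 16 negative regulators 3 rose and 0 fell, where 13.1% of all tested genes rose and 16.3% fell. Tnfaip3, which encodes the ubiquitin-editing enzyme A20, rose from 14.6, 13.6 and 18.5 FPKM to 31.6, 33.8 and 31.5 (1.02 ± 0.21, limma adjusted p = 0.00693). Its combination libraries lay close together and above all controls. Sigirr, a decoy-like member of the receptor family, rose from 8.95 ± 2.49 to 15.5 ± 2.47 FPKM (0.75 ± 0.21, limma adjusted p = 0.0219, and 0.0927 without control replicate 0). Cyld, a deubiquitinase, rose from 17.3 ± 4.63 to 27.6 ± 2.41 FPKM (0.67 ± 0.17, limma adjusted p = 0.0160, and 0.0736 without control replicate 0).

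Of 18 tested target genes that Toll-like receptors can induce, 6 rose and 3 fell in the combination. Of all tested genes 13.1% rose and 16.3% fell. The largest rises were Saa3, an acute phase protein, from 7.63 ± 7.69 to 135 ± 74.1 FPKM (4.21 ± 0.87, limma adjusted p = 0.00653), and the chemokine genes Ccl4, from 58.6 ± 21.7 to 912 ± 195 (4.00 ± 0.70, adjusted p = 0.00358), and Ccl3, from 30.3 ± 10.5 to 431 ± 6.45 (3.85 ± 0.64, adjusted p = 0.00313). Ccl3 and Ccl4 are also made by T and NK cells, whose markers rose in 12 of 12 and 3 of 10. The falls were Il1a, from 24.8 ± 17.4 to 4.84 ± 1.25 FPKM (-1.83 ± 0.55, limma adjusted p = 0.0293, and 0.122 without control replicate 0), Il12b, from 5.37 ± 1.82 to 1.31 ± 0.876 (-1.50 ± 0.31, adjusted p = 0.00694), and Il6, from 1.85 ± 1.02 to 0.250 ± 0.185 (-1.13 ± 0.27, adjusted p = 0.0109). The Il1a call held in 7 of the 12 fits without 1 library. The cytokine genes of the list went both ways. Of 6 receptors of interleukin 1 and 18, which also signal through MYD88, 2 fell, Il1r1 at -0.98 ± 0.22 (limma adjusted p = 0.00967, and 0.0526 under quantile normalization) and Il1rl2 at -0.96 ± 0.25 (limma adjusted p = 0.0172, and 0.0723 without control replicate 0).

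Il10, an anti-inflammatory cytokine, was the 1 pathway gene that passed in the combination against both single treatments. Of all tested genes 1.23% passed against polyIC and 0.125% against the antibody. Il10 had 2.17, 5.29 and 0.924 FPKM in control, 8.05, 4.94 and 7.63 with polyIC, 8.24, 2.16 and 2.44 with the antibody and 30.9, 79.2 and 42.6 in the combination. The combination libraries were above all 9 others, at 3.83 ± 0.50 from control (limma adjusted p = 0.00144), 2.64 ± 0.50 from polyIC (adjusted p = 0.0375) and 3.37 ± 0.50 from the antibody (adjusted p = 0.0361). Without 1 library the last 2 reached adjusted p-values of up to 0.177 without polyIC replicate 1 and 0.200 without combination replicate 1. The Il10 call against polyIC held in 5 of the 12 fits without 1 library, and in 11 of all 21 alternatives. Against the antibody it held in only 3 of the 12 and in 8 of the 21. With polyIC alone, Saa3 (3.66 ± 0.87, limma adjusted p = 0.0457), Ccl3 (2.68 ± 0.64, adjusted p = 0.0462) and Lcn2, an iron-binding neutrophil protein gene (2.26 ± 0.36, adjusted p = 0.0114), rose, and Il12b fell (-1.49 ± 0.31, adjusted p = 0.0297). Without polyIC replicate 0 none of these 4 passed, at adjusted p = 0.193, 0.207, 0.0618 and 0.144. Over the 12 fits without 1 library Saa3 kept this call in 3, Ccl3 in 4, Lcn2 in 10 and Il12b in 9.

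**Figure D5:**
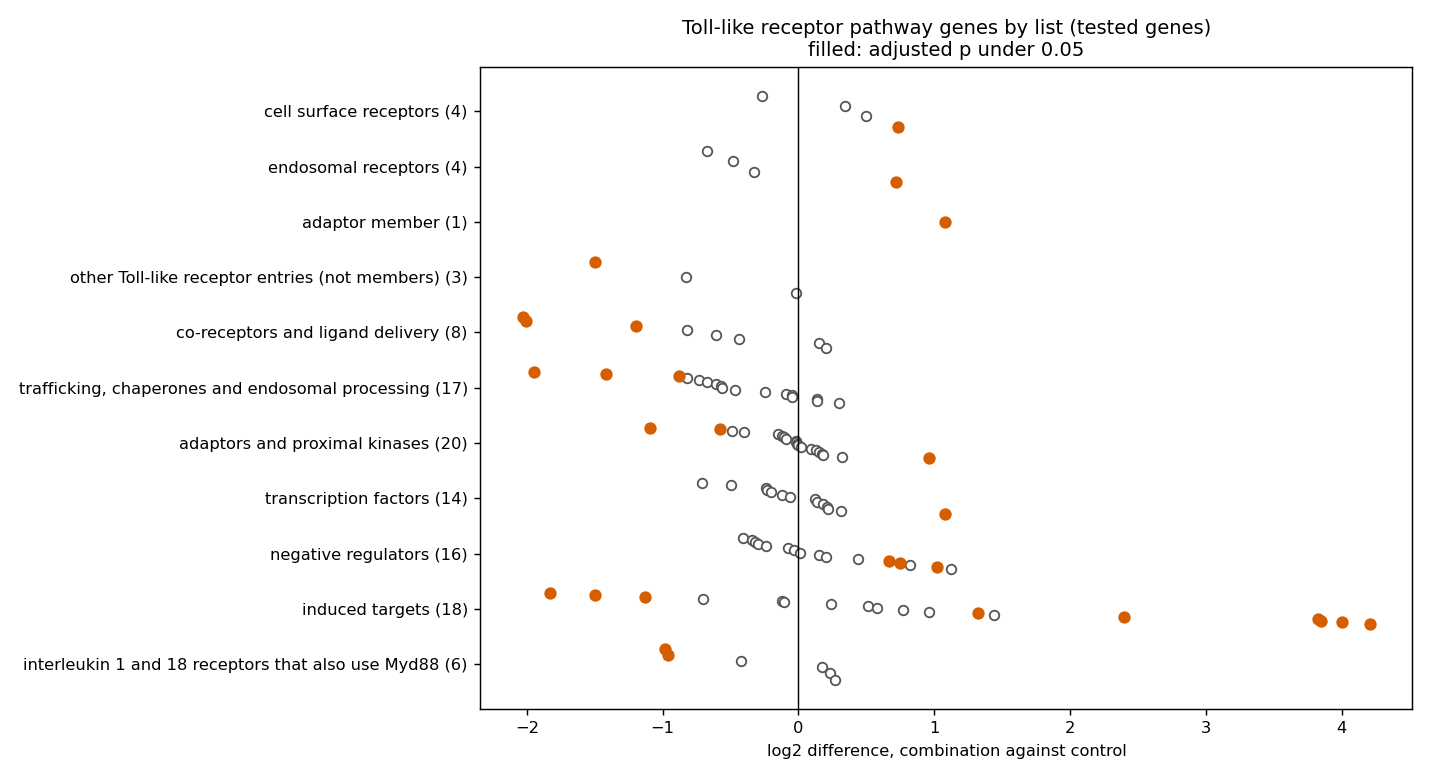
Fitted log2 difference of FPKM + 1 between the combination and control (x axis) for each tested gene of the pathway lists (rows, number tested in brackets); filled points have a limma adjusted p under 0.05. The co-receptor and trafficking lists hold filled points only on the left (3 and 3), the negative regulators only on the right (3), and the induced targets on both sides (6 rises, 3 falls). Over all tested genes 13.1% rose and 16.3% fell.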

How the data were processed

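The deposited table holds 1 FPKM value per gene and library, made by the authors with Cuffdiff on the mouse genome mm9 per the submitters' processing notes. The unit was read from the values, since the table does not name it, and the Cuffdiff version, aligner, annotation, scaling and strand setting were not given in the sources used. Groups came from the sample titles. For 9 genes whole groups were listed at 0 while every library of another group reached 5 FPKM, among them Actb and Apoe, and these were left out. A gene was tested if 3 or more libraries reached 1 FPKM, which 11991 did. Differences were fitted with limma 3.58.1 (limma-trend, two-sided) in R 4.3.3 on log2(FPKM + 1), a scale that understates changes of low genes, in 1 fit over the 4 groups with group as the only term. Calls needed a Benjamini-Hochberg adjusted p under 0.05. No count test was possible on FPKM. Relative depth came from the steps between low values in 45 of 66 library pairs. Tables were made with Python 3.11.15, numpy 2.4.6 and pandas 2.3.3 and figures with matplotlib 3.10.9. The fit was also run on simulated data, with errors drawn separately for each gene and library. Whole libraries that deviate together were not simulated, so that run does not cover them.

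The members, lists, markers and tests were chosen with earlier results of these data known. All 10 members are named. From a pathway list, every called gene is named where 6 or fewer were called, otherwise the 3 largest rises and 3 largest falls, with Tlr3, Cd14, Ly96, Unc93b1 and Ticam1 always. Likeness names the 3 genes with the highest r. Other settings tried were 0.1 as pseudocount, all genes without a filter, genes with a mean of 5 FPKM or more, median-of-ratios rescaling, quantile normalization, separate fits for each pair of groups, array quality weights (statmod 1.5.0), the replicate number as a block, leaving out each library and leaving out control replicate 2 and antiPDL1 replicate 2 together. Coordinates are those of the RefSeq promoter table (GRCm38.p6), which gave windows for 8 of the 10 members, and GENCODE was used for names, overlaps and lengths only.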

Additional observations from a re-analysis of the deposited data

How the results depend on the processing

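Leaving out each library in turn, the number of the 9 tested genes called ran from 0 to 4 in the combination against control, from 0 to 2 in antiPDL1 against control, from 0 to 1 in the combination against polyIC and from 0 to 3 in the F test of any difference among the groups, and was 0 throughout in polyIC against control, the combination against antiPDL1 and the interaction. Over the same fits the share of all tested genes called ran from 13.9% to 37.6%, 0.00834% to 17.4%, 0.0167% to 4.4% and 2.58% to 27.9% in the first 4 of these. It ran from 0.367% to 15.6% in polyIC against control, 0% to 2.75% in the combination against antiPDL1 and 0.00834% to 0.05% in the interaction. Array quality weights called 5 of the 9 in the combination against control, 1 in polyIC against control, 3 in antiPDL1 against control, 4 in the combination against polyIC and 5 in the F test, where 57.4%, 28.7%, 21.6%, 30.5% and 55.2% of all tested genes were called; these weights gave control replicate 2 and antiPDL1 replicate 2 the lowest values. With those 2 libraries left out the counts were 2 in antiPDL1 against control, 1 in the combination against polyIC and 3 in the F test, where 28.1%, 9.17% and 38.1% of all tested genes were called. Fits of only the groups compared called 2 in the combination against polyIC, where 11.2% of all tested genes were called. The F test called 1 under quantile normalization, 2 under median-of-ratios rescaling and 1 with the replicate block, where 13.5%, 16% and 11.5% of all tested genes were called. The cause of these changes was not tested. No alternative called a member in the interaction or in the combination against antiPDL1. With array quality weights 0.108% and 6.82% of all tested genes were called in these comparisons.

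Of the pathway genes, called at 4 in polyIC against control, the count there was 2 with no filter, 1 at a mean FPKM of at least 5, 12 under quantile normalization, 9 in fits of only the groups compared, 2 with the replicate block, 37 with array weights, 35 with the 2 doubted libraries out and 0 to 23 without 1 library. In the same order, the share of all tested genes called was 3.02%, 2.45%, 6.53%, 3.87%, 3.58%, 28.7%, 24.1% and 0.367% to 15.6%. In antiPDL1 against control the pathway count was 15 with array weights, 21 with the 2 libraries out and 0 to 13 without 1 library. Of all tested genes 21.6%, 28.1% and 0.00834% to 17.4% were called there. In the combination against control, 25 in the fit reported, the pathway count was 52 with array weights and 13 to 34 without 1 library. The shares of all tested genes were 57.4% and 13.9% to 37.6%. In the combination against polyIC, 1 as reported, the pathway count was 5 at a pseudocount of 0.1, 0 with no filter, 0 under quantile normalization, 2 under median-of-ratios rescaling, 22 in fits of only the groups compared, 0 with the replicate block, 39 with array weights, 15 with the 2 libraries out and 0 to 10 without 1 library. Beside these counts stood 2.87%, 0.138%, 0.05%, 1.13%, 11.2%, 0.0584%, 30.5%, 9.17% and 0.0167% to 4.4% of all tested genes. In the combination against antiPDL1, 1 as reported, the pathway count was 0 at a pseudocount of 0.1, with no filter, in fits of only the groups compared and with the replicate block, 19 with array weights, 2 with the 2 libraries out and 0 to 6 without 1 library. All tested genes were called at 0.0917%, 0.164%, 0.00834%, 0.00834%, 6.82%, 0.717% and 0% to 2.75% in these settings.

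The endosomal share without Tlr13 in the sum was 53.2% in control, 49.7% with polyIC, 41.3% with the antibody and 37.4% in the combination. With Tlr13 in the sum and 1 library left out the share ran, in the same order of groups, from 57.5% to 62.5%, 59.4% to 62.4%, 50% to 55.3% and 48.8% to 54.3%. Ticam1 in the combination against control changed sign, to 0.01 under quantile normalization and median-of-ratios rescaling, 0.03 with array weights, and ran from -0.19 to 0.17 without 1 library. Replicate numbers were not used as pairs: of 18 same-numbered pairs 4 deviated together with r over 0.1 (range -0.28 to 0.31), and 5 of 12 libraries correlated best with their own number. With the replicate block Myd88, Tlr1 and Tlr13 kept their calls and Tlr7 gained one, at limma adjusted p = 0.0352.

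The table holds no read counts, so no counting error is given, and the 3 libraries a group limit what can be called.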
